A study of Mus musculus with 8 samples.

Results

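The 2′-5′ oligoadenylate synthetase (OAS) family was followed here through 7 of its genes in mouse intestinal epithelial cells exposed to a type I or a type III interferon (IFN). The genes are Oas1a, Oas1b, Oas1g, Oas2, Oas3, Oasl1 and Oasl2, and every array probe that the scanner output names after one of them was used. This gave 10 probes for the 7 genes, out of 39429 probes with 31791 gene names.

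IEC10 cells are an immortalized line of mouse small intestinal origin whose founder mouse carried luciferase behind the Mx2 promoter, and this transgene is therefore shared by all groups. The cells were kept for 21 days on transwell inserts to polarize. They were then left untreated (control, n = 2 arrays, replicates 2 and 3 of the labels, which give no time for them and name medium where the methods name PBS), stimulated with IFN-λ2 at 20 ng/mL (n = 3) or stimulated with IFN-β at 500 U/mL (n = 3), in both cases for 9 h. The doses of the cytokines are in different units, each was used at 1 dose and 1 time, and all cells come from 1 line. The labels do not say whether replicates were separate cultures, so that p-values measure the spread between these arrays, which may be technical. The labels name Trizol for the RNA and the methods the RNeasy Mini Kit.

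OAS enzymes are sensors of double-stranded RNA, the form of RNA that many viruses make during replication. Once bound to it, they join ATP into short chains with 2′-5′ bonds (2-5A), a messenger that leads to the cutting of viral and cellular RNA and so stops protein synthesis. The genes are classical IFN-stimulated genes in most tissues, the gut epithelium included, and their products are made in advance of infection. Type I IFN acts through the receptor chains IFNAR1 and IFNAR2 and type III IFN through IL-28Rα and IL-10Rβ, and both act through transcription factors that include STAT2 and IRF9.

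Values are normalized intensities in the units of the deposited table, where the 75th percentile of each array had been set to 1500 units and every value under 15 raised to 15, the floor. An intensity depends on its probe as well as its transcript. Over the probes above the floor on all 8 arrays, the median SD between replicates was 0.0972 to 0.112 on the log2 scale. Between 20991 and 24252 probes per array were well above background. No feature was saturated. All 10 epithelial marker genes, among them Epcam, Cdh1 and Krt8, were well above background on all 8 arrays. Of 11 markers of leukocytes, endothelium and mesenchyme, Pdgfra and Des were well above background on 0 arrays and Ptprc and Emr1 on 2. Cd3e, Itgam, Cd68 and Kdr (4 of 11) were so on all 8, Pecam1 and Acta2 on 7 and Col1a1 on 4. The summed level of these 11 markers ranged from 6622 to 8717 units in the control, from 3028 to 4481 with IFN-λ2 and from 3765 to 10959 with IFN-β, and most of it came from Itgam. The summed level of the epithelial markers ranged from 405412 to 411518, from 481838 to 505763 and from 407995 to 447494 units in the same order. Of the 10, Krt20 (log2 change 0.74), Cdh1 (0.45), Krt19 (0.42) and Elf3 (0.33) were higher and Cldn3 lower (−0.62) with IFN-λ2 at an adjusted p between 0.0027 and 0.0485 from limma. The adjusted p of the others with IFN-λ2 was 0.0815 (Krt18) or above from limma. With IFN-β the adjusted p of all 10 was 0.255 or above. The part of these markers in the results on the OAS genes was not tested. In such bulk samples, fewer cells of a type and less RNA per cell cannot be told apart.

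Each of the 7 gene names had at least 1 probe that rose with both cytokines, that of Oas1g being shared with Oas1a, and Oas2 had the largest change in either case, except that with the background correction normexp Oasl2 (4.55) came before Oas2 (4.47) on the log2 scale with IFN-β. A probe was counted as higher when its change was at least 2-fold and its adjusted p, from limma with Benjamini-Hochberg adjustment over the 25615 probes that exceeded the floor on 2 or more arrays, was under 0.05. With IFN-λ2, 8 of the 10 probes were higher than in the control, 1 was tested and not called, and 1 was not tested because it lay at the floor. Of all probes tested, 2.74% were higher with IFN-λ2. Exposure to IFN-β raised the same 8 probes, and 0.906% of all probes. By the methods' t-test, with the same adjustment, the count for IFN-β was 4, without Oas3, Oasl1, Oasl2 and the dimmer Oas1b probe, whose adjusted p was then between 0.0522 and 0.0735. By limma none of the 9 tested was lower at these limits, beside 1.1% of all probes with IFN-λ2 and 0.0273% with IFN-β. At an unadjusted p under 0.05 the count of the 9 was also 0. Without the 2-fold limit, at an adjusted p under 0.05, IFN-λ2 raised 9 probes and IFN-β 8, against 10.8% and 1.51% of all probes. The probe in the count of IFN-λ2 alone was the brighter Oas1b probe, which lost its place under 7 of 19 alternatives given below. On all 9 tested probes every stimulated array exceeded both control arrays, as happened on 26.5% of all probes with IFN-λ2 and 14.6% with IFN-β. The median log2 change of the 9 tested probes was 3.59 with IFN-λ2 and 3.36 with IFN-β, against 0.02 and 0.01 over all probes tested. The Oas1g probe passed the filter only through the stimulated cells, so that its change over control had to be positive. It adds no support to the counts of 8, to those without the 2-fold limit or to that of arrays above the control. With it at its lower bound the medians are the same.

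**Figure D1:**
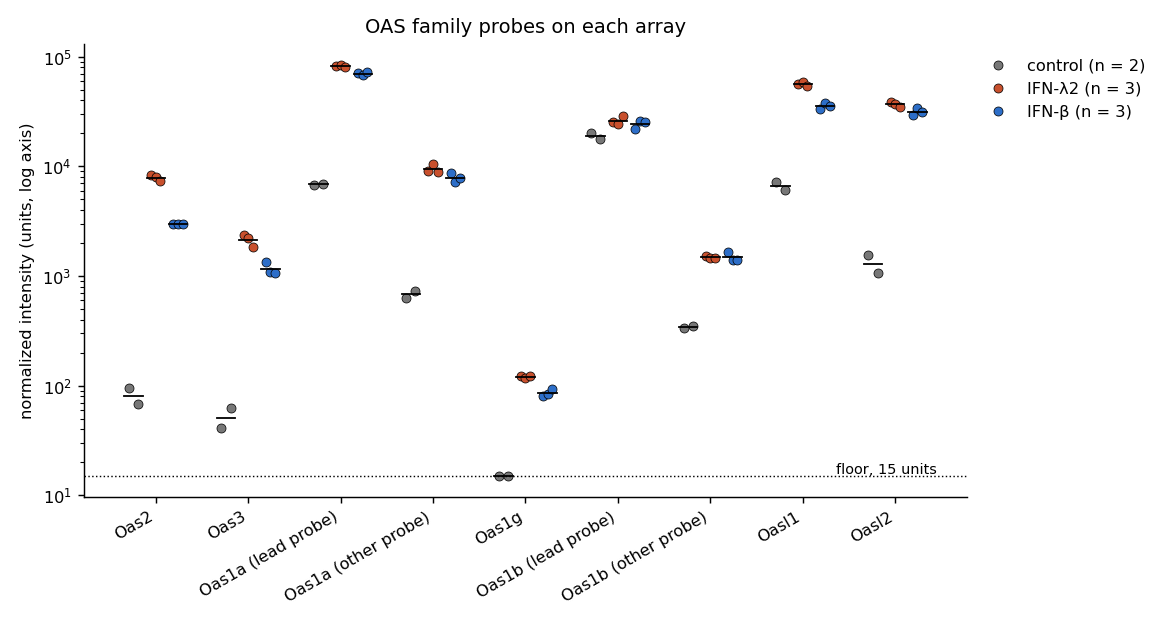
Normalized intensity (units, log axis) of the 9 tested OAS family probes on each array; the brighter probe of a gene is its lead probe, points are arrays, short lines the mean of the log2 values per group, and the dotted line is the floor of 15 units. All stimulated arrays lie above both control arrays for every probe, and for Oas2 the 3 IFN-λ2 arrays (7319 to 8387 units) lie well above the 3 IFN-β arrays (2987 to 3005 units).

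Oas2 encodes a synthetase with a catalytic and a catalytically silent OAS unit. Its probe (mm9 chr5:121180343-121180402, minus strand) read 95.6 and 67.6 units in the control, 8387, 7954 and 7319 units with IFN-λ2 and 3005, 2995 and 2987 units with IFN-β. The 3 groups did not overlap, and the IFN-β arrays lay close together. The level was 97.9-fold higher with IFN-λ2 than in the control (95% confidence interval 77.4 to 124, log2 change 6.61, SE 0.14, adjusted p = 1.41e-06 from limma) and 37.3-fold higher with IFN-β (29.5 to 47.1, log2 change 5.22, adjusted p = 4.51e-06 from limma). Oas2 was dim in the control, and with normexp, which models signal and background together in place of subtraction, the log2 changes were 5.84 and 4.47.

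Oas3 encodes the longest synthetase of the family, built from OAS units in a row. Its probe (mm9 chr5:121203598-121203657, minus strand) read 40.8 and 63.2 units in the control, 2363, 2237 and 1830.4 units with IFN-λ2 and 1339.7, 1079.75 and 1066 units with IFN-β. Again the 3 groups did not overlap, and the lowest IFN-λ2 array lay above the highest IFN-β array. Over the control this was a 42.0-fold increase with IFN-λ2 (95% confidence interval 29.7 to 59.3, log2 change 5.39, SE 0.21, adjusted p = 1.09e-05 from limma) and a 22.8-fold increase with IFN-β (16.1 to 32.1, log2 change 4.51, adjusted p = 3.5e-05 from limma). The control level was again low, though well above background on both arrays, and with normexp the log2 changes were 4.27 and 3.44.

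Oas1a encodes the small, catalytically active synthetase and had 2 probes. The brighter one (mm9 chr5:121346735-121346794, minus strand) read 6786 and 6869 units in the control, 82602, 84661 and 80206 units with IFN-λ2 and 71149, 67604 and 71823 units with IFN-β. The control arrays differed by little, and the IFN-λ2 arrays lay above the IFN-β arrays with a narrow gap between them. It was 12.1-fold higher with IFN-λ2 than in the control (95% confidence interval 10.8 to 13.5, log2 change 3.59, SE 0.07, adjusted p = 1.41e-06 from limma) and 10.3-fold higher with IFN-β (9.21 to 11.5, log2 change 3.36, adjusted p = 3.24e-06 from limma). A dimmer probe (mm9 chr5:121348338-121348397) read 637 and 724 units in the control, 9095, 10408 and 8831 units with IFN-λ2 and 8624, 7184 and 7879.6 units with IFN-β. Its changes, 13.9-fold and 11.6-fold, have intervals (11.5 to 16.8 and 9.59 to 14.0) that overlap those of the brighter probe.

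Oas1g, an active synthetase gene next to Oas1a and close to it in sequence, also had 2 probes, and these disagreed. The tested one (mm9 chr5:121326271-121326330, minus strand) was at the floor of 15 units and not well above background on both control arrays. It read 122, 118 and 123 units with IFN-λ2 and 80.9, 83.4 and 92.3 units with IFN-β. The 6 stimulated arrays were all well above background, and the IFN-λ2 arrays lay above the IFN-β arrays. Because the control gives only a bound, the IFN-λ2 level exceeded it at least 7.31-fold (adjusted p = 2.04e-06 from limma) and the IFN-β level at least 5.17-fold (adjusted p = 5.73e-06 from limma), the bound being the mean of, per control array, the higher of the probe's signal and the lowest signal well above background. The p-values rest in part on control values clipped to 1 number, and the probe passed the filter only through the stimulated arrays. These p-values therefore add no support to an increase. The size depends on the processing, with log2 changes of 1.83 and 1.34 by normexp, 1.27 and 0.77 with a floor of 50 units and 4.68 and 4.19 with no floor, of which those by normexp and with a floor of 50 units lie below the bounds. The other probe (mm9 chr5:121326151-121326210), for which the files list Oas1g alone, was at 15 units on all 8 arrays. The scanner output lists an Oas1a transcript beside that of Oas1g for the tested probe, and an Oas1g transcript for the brighter probe of Oas1a, so that the signals of this pair of genes cannot be told apart with these 2 probes. The dimmer Oas1a probe lists Oas1a alone. An increase of Oas1g itself was therefore not shown by a probe specific to it.

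The start regions of Oas1a and Oas1g are shown because the files list both genes for 1 probe of each and their upstream sequence is nearly the same. The 120 bases before each transcription start, from RefSeq on GRCm38.p6, are given 5′ to 3′ on the minus strand at chr5:120907526-120907645 for Oas1a and chr5:120887614-120887733 for Oas1g, and the capitals mark matches to GAAA, 2 bases of any kind and GAAA again, a form of the IFN-stimulated response element. On the other strand this reads TTTC, 2 bases and TTTC.
Oas1a: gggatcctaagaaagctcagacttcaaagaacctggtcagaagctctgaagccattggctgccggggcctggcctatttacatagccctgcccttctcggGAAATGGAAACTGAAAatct
Oas1g: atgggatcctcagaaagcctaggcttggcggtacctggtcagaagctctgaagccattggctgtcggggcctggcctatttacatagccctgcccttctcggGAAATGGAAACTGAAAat
Each region holds 2 overlapping matches, which end 5 bases before the start in Oas1a and 3 bases before it in Oas1g. Over the 118 bases that align, 108 were identical (91.5%). The upstream region of Oas3 on the same strand (chr5:120777660-120777779) holds 1 match, between 75 and 66 bases before the start.
Oas3: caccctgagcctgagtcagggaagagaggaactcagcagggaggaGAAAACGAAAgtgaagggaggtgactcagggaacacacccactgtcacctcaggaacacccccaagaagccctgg
A promoter of 300 bases (250 before and 50 after the start) was at hand for 5 of the 7 genes. Of these 5, 3 held the motif, against 1131 of 32851 promoters (3.44%). The 3 were Oas3 and the nearly identical Oas1a and Oas1g, which are not separate cases. Among the other Oas1 genes with a promoter at hand, 1 of 3 held it, and Oas1f did not. The promoters of Oasl1 and Oasl2 held no match, and these letters absent from this window say nothing about binding of a factor. A match is a description of sequence and was not tested for function.

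The probe of Oas1a also shares sequence with that of Oas1f, another gene of the cluster, which bears on how far their signals are separate. Of the 136 pairs among 17 Oas probes of the array, 3 shared an unbroken run of more than 10 bases. The 30-base windows around the run shared by the brighter Oas1a probe and the Oas1f probe (mm9 chr5:121307929-121307988, plus strand), taken from the scanner output with the shared 14 bases in capitals, were as follows.
Oas1a probe: TGTCCACCTGTTGGaaggttctgtctgaca
Oas1f probe: TGTCCACCTGTTGGgaggttctgtccaatg
Whether transcripts of one gene bound the probe of the other was not tested. The remaining Oas1a probe shared no run of more than 10 bases with any of the others.

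Oas1b is the gene in which mouse strains differ in resistance to flaviviruses, and the gene table of GRCm38.p6 lists it as a transcribed pseudogene. Its 2 probes gave different answers. The brighter one (mm9 chr5:121274109-121274168, plus strand) read 19935.5 and 17855 units in the control, 25572, 24221.5 and 28490.2 units with IFN-λ2 and 22049.8, 25809 and 25329.5 units with IFN-β. All stimulated arrays lay above both control arrays, but the change was far smaller than that of the other probes. The brighter probe changed 1.38-fold with IFN-λ2 (95% confidence interval 1.15 to 1.65, adjusted p = 0.0278 from limma, and 0.0544 with the replicate number as a block) and 1.29-fold with IFN-β (1.08 to 1.54, adjusted p = 0.236 from limma), and it was not counted as higher in either case. Leaving out any 1 of control replicate 2, control replicate 3, IFN-λ2 replicate 1 and IFN-λ2 replicate 3 raised the adjusted p for IFN-λ2 to between 0.0567 and 0.142.

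The other Oas1b probe (mm9 chr5:121273890-121273949) read 332 and 351 units in the control, 1521, 1445 and 1465 units with IFN-λ2 and 1666, 1397 and 1403 units with IFN-β. Here the stimulated arrays were all far above the control, and those of the 2 cytokines overlapped. With IFN-λ2 it was 4.32-fold higher (95% confidence interval 3.69 to 5.06, adjusted p = 2.18e-05 from limma) and 4.34-fold higher with IFN-β (3.71 to 5.08, adjusted p = 3.19e-05 from limma), with intervals that do not reach those of the brighter probe. A further probe, named in the files only by an Ensembl transcript that they also list for Oas1b and therefore outside the chosen set, shares 42 of its 60 bases with the brighter probe. It read 5503 and 4712 units in the control and rose 2.07-fold with IFN-λ2 (1.77 to 2.41), while it was 1.92-fold higher with IFN-β (1.65 to 2.24) and so short of the 2-fold limit. The 3 probes of this gene thus gave 3 sizes of change with IFN-λ2. The accession listed for the brighter one could not be matched to the gene table, so that its name rests on the scanner output.

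**Figure D2:**
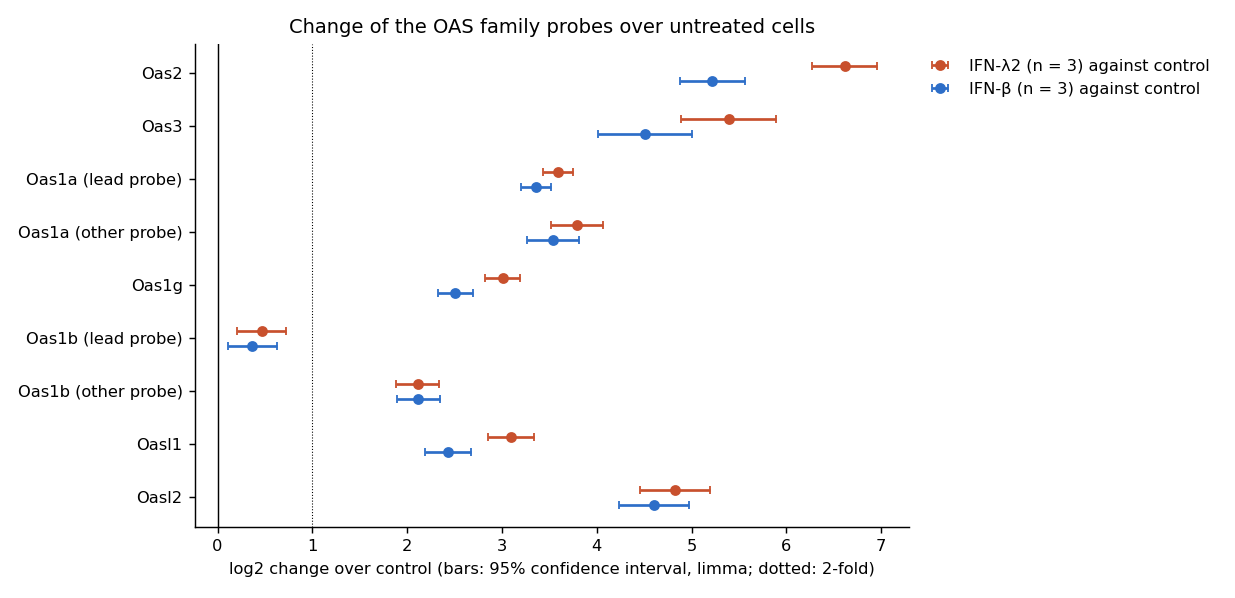
Log2 change over control for the 9 tested OAS family probes with IFN-λ2 and IFN-β; bars are 95% confidence intervals from limma, the dotted line marks 2-fold, and the change of Oas1g is against the floor of 15 units. Oas2 has the largest changes (6.61 and 5.22; with normexp 4.47 for IFN-β against 4.55 for Oasl2), and the brighter Oas1b probe (0.46 and 0.37) is the only one whose changes lie below 2-fold.

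Oasl1 and Oasl2 encode OAS-like proteins with ubiquitin-like domains at their end, and lie in a second cluster on the same chromosome. Oasl1, which lacks synthetase activity and holds back translation of Irf7 mRNA, read 7191 and 6026 units in the control, 56046, 58407 and 53876 units with IFN-λ2 and 33151, 38040.5 and 35427 units with IFN-β (mm9 chr5:115387861-115387920, plus strand). No group overlapped with another. The increase was 8.52-fold with IFN-λ2 (95% confidence interval 7.20 to 10.1, log2 change 3.09, adjusted p = 4.67e-06 from limma) and 5.39-fold with IFN-β (4.56 to 6.38, log2 change 2.43, adjusted p = 2.3e-05 from limma).

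Oasl2, which keeps synthetase activity, read 1562 and 1075 units in the control, 38247, 37158 and 34678 units with IFN-λ2 and 29488, 33799 and 31594 units with IFN-β (mm9 chr5:115362168-115362227, plus strand). The stimulated arrays lay close together, and the highest IFN-β array came near the lowest IFN-λ2 array. Oasl2 was 28.3-fold higher with IFN-λ2 than in the control (95% confidence interval 21.9 to 36.5, log2 change 4.82, adjusted p = 4.14e-06 from limma) and 24.4-fold higher with IFN-β (18.9 to 31.5, log2 change 4.61, adjusted p = 7.78e-06 from limma).

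To see whether the cytokines differed, both sets of stimulated arrays were set against each other. Only Oas2 among the 9 tested probes passed with IFN-λ2 at least 2-fold above IFN-β, as did 1.46% of all probes. By limma none passed in the other direction at these limits, where 0.707% of all probes did, and at an unadjusted p under 0.05 the count of the 9 was also 0. The level of Oas2 was 2.63-fold that with IFN-β (95% confidence interval 2.13 to 3.24, log2 difference 1.39, SE 0.13, adjusted p = 0.00119 from limma). Arrays that share a replicate number share a slide, and on the slides of replicates 1, 2 and 3 the log2 difference was 1.48, 1.41 and 1.29.

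Smaller differences in the same direction passed the test on 3 more probes, so that 4 of 9 had an adjusted p under 0.05 with IFN-λ2 higher, as had 6.15% of all probes. For Oas3 the difference was 1.84-fold (95% confidence interval 1.35 to 2.51, adjusted p = 0.0271 from limma, and 0.0564 with the replicate number as a block), with log2 differences of 0.82, 1.05 and 0.78 within the slides. Without IFN-λ2 replicate 1 or 2, or without IFN-β replicate 2 or 3, its adjusted p was between 0.0722 and 0.102. For Oasl1 it was 1.58-fold (1.36 to 1.84, adjusted p = 0.00568 from limma), with 0.76, 0.62 and 0.60 on the log2 scale within the slides. For Oas1g it was 1.41-fold (1.26 to 1.59, adjusted p = 0.0057 from limma), with 0.59, 0.50 and 0.41 within the slides. The Oas1g probe was measured on all arrays of both cytokines, so that the floor in the control does not enter its mean difference, though both control values enter the error of the fit. Without the control arrays its adjusted p was 0.0125 from limma.

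For the other 5 probes the test gave no call. The brighter Oas1a probe gave a ratio of IFN-λ2 to IFN-β of 1.18 (95% confidence interval 1.07 to 1.30, adjusted p = 0.0503 from limma), while the other Oas1a probe a log2 difference of 0.26 (0.01 to 0.50, adjusted p = 0.175 from limma). The adjusted p of the brighter one was between 0.0178 and 0.265 under the alternatives tried. The ratio was 1.16 for Oasl2 (0.924 to 1.46, adjusted p = 0.387 from limma), which leaves room for a difference of up to 1.46-fold. The Oas1b probes had ratios of 1.07 (0.911 to 1.26) and 0.995 (0.864 to 1.15), and the sign of the latter turned when IFN-λ2 replicate 2 or IFN-β replicate 1 was left out. On 7 of the 9 probes all IFN-λ2 arrays lay above all IFN-β arrays, as they did on 17.9% of all probes, the exceptions being the Oas1b probes. Each treatment occupied 1 place on the slides throughout, so that place and treatment cannot be told apart.

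**Figure D3:**
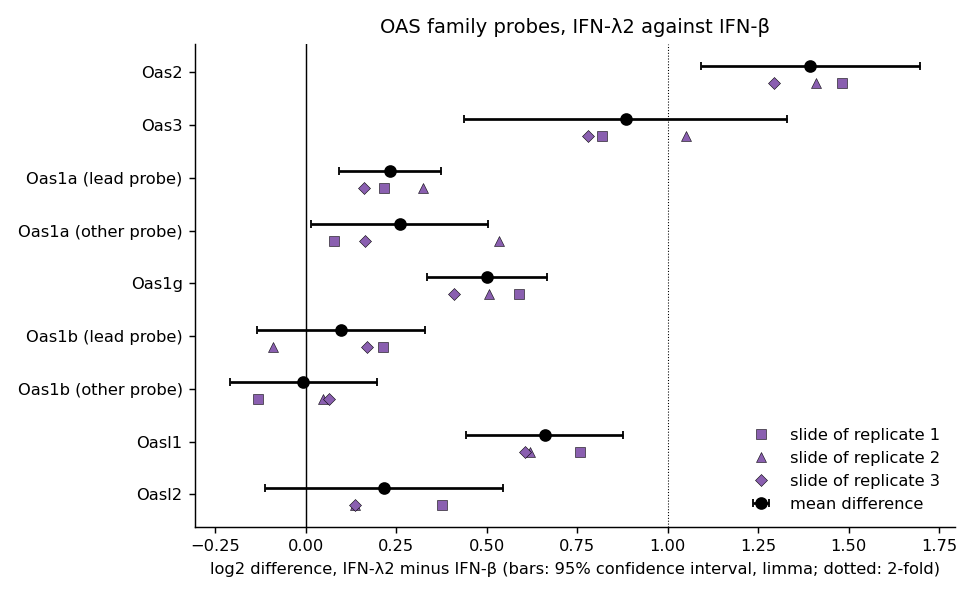
IFN-λ2 less IFN-β (log2) for the 9 tested OAS family probes; circles with bars are the mean and its 95% confidence interval from limma, and the purple symbols are the differences within each slide. Oas2 lies at 1.39 with all slides above 1, and the Oas1b probes lie around 0.

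Taken over the brightest probe of each of the 7 genes, each probe centred on its own mean over the 8 arrays, the mean log2 level was −2.62 and −2.74 on the control arrays, 1.22, 1.19 and 1.13 on the IFN-λ2 arrays and 0.58, 0.62 and 0.62 on the IFN-β arrays. The groups formed 3 separate levels, with IFN-β between the control and IFN-λ2. Across the 8 arrays, the tested probes other than Oas1g had Pearson correlations with this mean between 0.89, for the brighter Oas1b probe, and 0.997, for Oas2. The control values of Oas1g, one of the 7, are set by the floor. These values describe points that share groups and slides, and the members are themselves part of the mean.

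Among the 20258 probes outside the family that were well above background on all 8 arrays, the 5 genes with the profile most like this mean were Dhx58, Tgtp2, Ifit3, Apol9a and Cmpk2, with Pearson correlations from 0.99896 to 0.99935. Dhx58, which encodes the RNA sensor LGP2, led the list. It read 140 and 104 units in the control, 4085, 4065 and 3690 units with IFN-λ2 (3689.7 on replicate 3) and 2400.2, 2338 and 2389 units with IFN-β. Its log2 changes were 5.03 and 4.30, with a direct log2 difference of 0.73 between the cytokines (adjusted p = 0.00845 from limma). The same difference was 0.51 for Ifit3, 0.49 for Cmpk2, 0.71 for Tgtp2 and 0.77 for Apol9a, IFN-λ2 being above in each case. The place in this list was chosen on the same arrays, and these values are a description.

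Among the Oas1 genes outside the chosen set, 3 of the 5 rose with both cytokines. This was 3 of the 4 probes tested, beside 2.74% of all probes with IFN-λ2 and 0.906% with IFN-β. Oas1f read 2182 and 2061 units in the control, 22404, 23878 and 21447.5 units with IFN-λ2 and 20841, 19424 and 19383 units with IFN-β, a log2 change of 3.41 and 3.23 (adjusted p = 1.41e-06 and 3.65e-06 from limma). Oas1c changed by 2.02 and 1.97 and Oas1e by 1.68 and 1.64. For Oas1d the log2 changes were 0.45 and 0.47 and passed no test (adjusted p = 0.191 and 0.452 from limma), and both probes of Oas1h were at the floor of 15 units on all 8 arrays. None of the 4 tested probes differed between the cytokines in limma's test at an adjusted p under 0.05, the largest difference being 0.18 for Oas1f (adjusted p = 0.161), and 1 of the 4 had an unadjusted p under 0.05.

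Other genes of the 2-5A pathway showed small differences. Abce1, whose product inhibits the pathway, had log2 changes of 0.16 for IFN-λ2 and 0.005 for IFN-β, and Pde12, which degrades 2-5A, had 0.21 and −0.06, with no call in either comparison (adjusted p from 0.0961 to 0.997 from limma). The 3 probes of Akap7, whose product has a 2-5A phosphodiesterase domain, had log2 changes between −0.15 and 0.18. Of the 5 probes of this list, 0 passed limma's test against the control with either cytokine, where 10.8% of all probes were higher with IFN-λ2 and 1.51% with IFN-β. With 5 probes, a count of 0 does not set the list apart. At an unadjusted p under 0.05 the count was 1 with IFN-λ2 and 0 with IFN-β. In the direct comparison Pde12 had a difference of 0.27 (adjusted p = 0.0429 from limma), below the 2-fold limit. The median of the 5 was 0.16 and 0.005.

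Upstream of the OAS genes, 3 of 11 probes for receptor and signalling genes rose with both cytokines and 8 did not pass. The share of all probes higher was 2.74% with IFN-λ2 and 0.906% with IFN-β. Those that rose were Stat2 (log2 change 2.17 with IFN-λ2 and 1.73 with IFN-β), Irf9 (2.01 and 1.93) and Irf7 (3.68 and 3.85), the factors that carry the IFN signal to the genes or are themselves induced by it. The receptor genes Ifnar1, Ifnar2, Il28ra (now Ifnlr1) and Il10rb and the kinase genes Jak1 and Tyk2 had log2 changes between −0.29 and 0.15. The medians over the list were −0.03 and 0.03. Between the cytokines, Stat2 had a difference of 0.44 (adjusted p = 0.0475 from limma), and no probe of the list reached the 2-fold limit.

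Among genes for other sensors of double-stranded RNA and their partners, 11 of 12 probes, standing for 7 of 8 genes, were higher with both cytokines. Of all probes, 2.74% were higher with IFN-λ2 and 0.906% with IFN-β. Zbp1 rose by 5.27 and 5.14 on the log2 scale at its brighter probe, Ddx58 (RIG-I) by 2.85 and 2.75 at its brighter probe, Eif2ak2 (PKR) by 2.14 and 2.07, and the smallest increase called was that of Tlr3, 1.28 and 1.18. Mavs, the adaptor of the RIG-I-like receptors, had changes of 0.23 and 0.06 and was not called. The list median was 2.27 in both comparisons, beside the 3.59 and 3.36 of the OAS family probes. In the direct comparison none of the 12 reached the 2-fold limit, and 3 had an adjusted p under 0.05 from limma, namely Dhx58 (0.73), the dimmer Zbp1 probe (0.75) and 1 Adar probe that was lower with IFN-λ2 (−0.54).

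**Figure D4:**
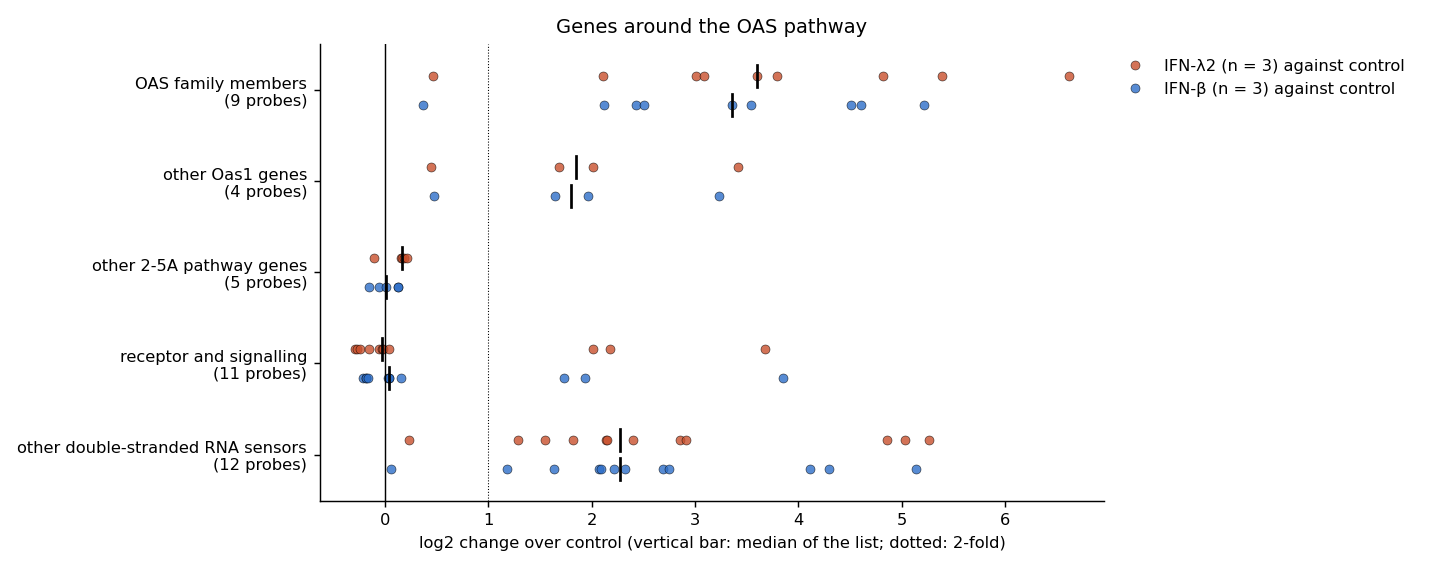
Log2 change over control of every tested probe in the OAS family and in 4 gene lists around it, with IFN-λ2 and IFN-β; vertical bars are list medians and the dotted line marks 2-fold. The OAS family medians are 3.59 and 3.36, those of the other sensors 2.27, and most receptor probes lie near 0.

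The Oas1, Oas2 and Oas3 genes form 1 cluster, and the genes around it were looked at for changes of the same kind. Seen from the Oas3 probe, the Oas2 probe lay at −23.3 kb and the Oas1 probes at 33.0 to 168 kb, counted along the chromosome. Within 300 kb of any OAS family probe, both clusters included, 43 probes of 34 other genes were tested. Their median log2 change was −0.05 with IFN-λ2 and 0.04 with IFN-β. By the 2-fold limit and limma's adjusted p, 1 of the 43 was higher with IFN-λ2, beside the 2.74% of all probes, and 0 with IFN-β, beside 0.906%, so that these counts set the neighbours apart in neither comparison. At an unadjusted p under 0.05, 7 were higher and 7 lower with IFN-λ2, 5 higher and 2 lower with IFN-β, and 2 higher and 8 lower in the direct comparison. The share of all probes at that limit was not determined, so that these counts do not set the neighbours apart either.

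The 1 neighbour called was Rasal1, a Ras GTPase-activating protein gene, 51.1 kb from the Oas2 probe (mm9 chr5:121129217-121129275). Rasal1 read 15 and 17.5 units in the control, 230.4, 143 and 103 units with IFN-λ2 and 23.2, 15 and 19.95 units with IFN-β. The IFN-λ2 arrays lay above all others, while IFN-β and control overlapped. Detection well above background was seen on 1 of 2 control, 3 of 3 IFN-λ2 and 2 of 3 IFN-β arrays, and the fitted log2 changes were 3.21 with IFN-λ2 (adjusted p = 0.0011 from limma) and 0.24 for IFN-β (adjusted p = 0.834 from limma). In the direct comparison it was again the only one of the 43 called (fitted difference 2.98, adjusted p = 0.00173 from limma). Values at the floor of 15 units enter both comparisons, so that the sizes fitted depend on the floor.

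**Figure D5:**
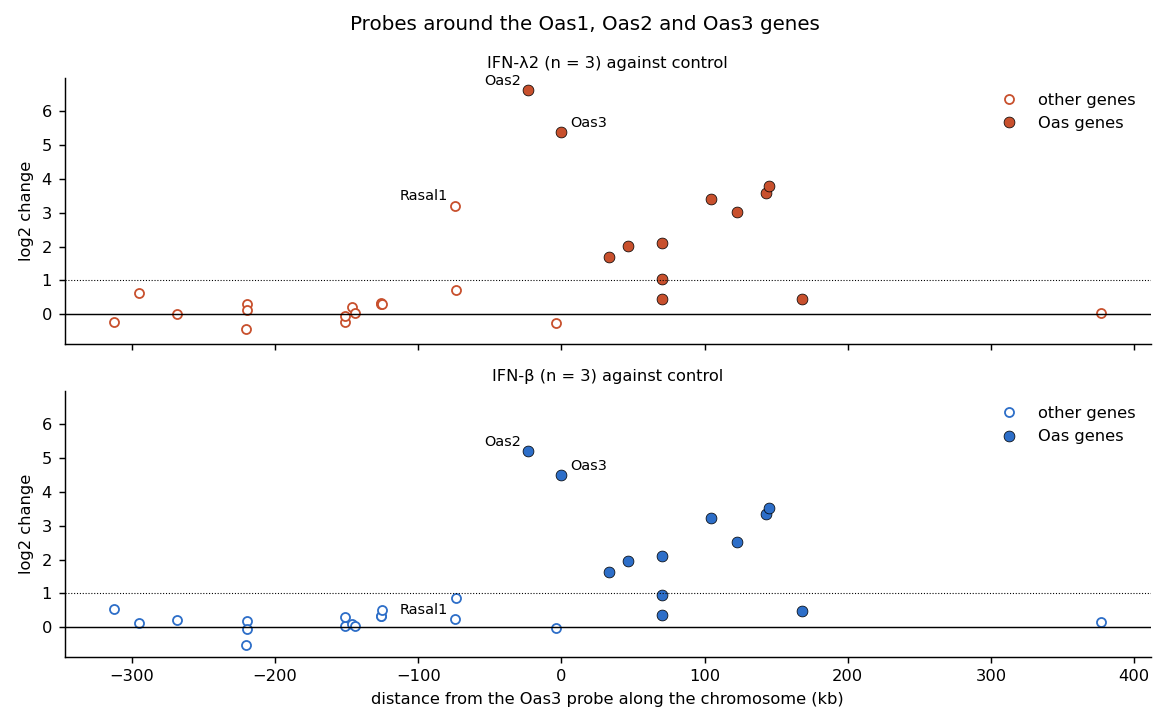
Log2 change over control of the probes around the Oas1, Oas2 and Oas3 genes, by distance (kb) from the Oas3 probe, with IFN-λ2 above and IFN-β below; filled points are Oas genes, open points other genes, and the dotted line marks 2-fold. With IFN-λ2 Rasal1 (3.21) is the only open point above the dotted line, and with IFN-β (0.24) it is below it.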

How the data were processed

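RNA from 8 samples was labelled with Cy3 and hybridized to 1-color Agilent whole mouse genome arrays, and the slides were read with Agilent Feature Extraction 10.7.3.1. The authors deposited the scanner output and a table of normalized intensity values on a linear scale, which equalled the background-subtracted processed signal times an array-specific factor (0.628 to 0.712) within 1% for 100% of probes with 1 feature and a value over the floor of 15 units. The scanner output carries probe names, 60-base sequences and mm9 positions, which were used for names and coordinates. Gene names and start regions of GRCm38.p6 are from RefSeq.

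The intensities were converted to log2. Probes above 15 units on at least 2 arrays (25615 of 39429) were fitted with limma 3.58.1 in R 4.3.3, as 3 group means over all 8 arrays with eBayes, Benjamini-Hochberg adjustment over all probes tested and a threshold of 0.05. The fit was tested on simulated data. Lists and sequences were handled in Python 3.11.15 (pandas 2.3.3, numpy 2.4.6, scipy 1.17.1). A gene with several probes is led by the one with the highest mean log2 level. All probes of the 7 genes are described, together with the pathway lists, the genes within 300 kb and the 5 genes most like the family mean. The members and lists were chosen with earlier results of these data known. No share of all probes was taken at an unadjusted p under 0.05, so that counts at that limit have no background beside them.

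Deviations from the group means correlated between IFN-λ2 and IFN-β arrays of the same number (0.187, 0.277 and 0.317 for replicates 1, 2 and 3). Arrays of different numbers were not compared in this way, and the main fit left the numbers out. Each number stands for 1 slide, scanned together. With control arrays the correlations were between −0.0652 and 0.103. The number of arrays, above all the 2 of the control, limits the precision. A control replicate 1 was not analysed here, and certain genes of the lists are not reported here.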

Additional observations from a re-analysis of the deposited data

How the results depend on the processing

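The alternatives were values rebuilt from the scanner output, normexp, quantile normalization, a floor of 50 units or none, other filters on dim probes, the replicate number as a block, a fit of 2 groups at a time, an intensity trend in the prior, the methods' t-test (inferred, since the methods name a 2-group analysis and no test) with Benjamini-Hochberg adjustment, and leaving out each array. The number of OAS family probes that were higher than in the control with IFN-λ2 was 8, and the number higher in the direct comparison was 1, under all 19 alternatives. With IFN-β it was 8 throughout, except 7 with a floor of 50 units, at which Oas1g fell short of 2-fold, and 4 by the methods' t-test. Among the values of single OAS family probes under these alternatives, 488 kept their direction and their side of an adjusted p of 0.05, whatever the fold, 18 rose above it, 5 fell below it and 2 turned sign. Those that rose above it were Oas3 between the cytokines and the brighter Oas1b probe with IFN-λ2, under 7 alternatives each, and 4 probes with IFN-β by the methods' t-test. Those that fell below it were of the brighter Oas1a probe between the cytokines. The replicate block moved no family value across 0.05 but the 2 given in the text. The dimmer Oas1b probe had a difference of −0.01 between the cytokines, which was 0.0087 without IFN-λ2 replicate 2 and 0.0769 without IFN-β replicate 1, and between −0.0502 and 0.0769 when any 1 array was left out. The brighter probe had 0.10, so that taking the other probe of Oas1b turns the sign (−0.0069). The causes were not tested.

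Over all probes, the IFN-λ2 arrays gave 701 higher and 283 lower probes than the control, with 72 lower by normexp, 182 with a floor of 50 and 144 by the methods' t-test. IFN-β gave 232 higher and 7 lower, with 76 higher and 2 lower by the methods' t-test, and 1 lower by normexp or without a filter, 2 with a floor of 50 and 3 in the fit of 2 groups at a time. Between the cytokines 375 were higher and 181 lower with IFN-λ2, with 244 and 36 by normexp, and 107 lower with a floor of 50 and 115 by the methods' t-test. Leaving out 1 array gave between 2 and 75 lower probes with IFN-β and between 136 and 409 lower in the direct comparison. The 409 arose without IFN-β replicate 2, and 71 and 75 lower probes with IFN-β without control replicate 2 and 3. Normexp moved the median change of all probes with IFN-λ2 to 0.11.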
